A study of Homo sapiens with 16 samples.

Results

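In WM164 human melanoma cells, 3838 regions of the genome carried peaks of both anti-MAFG and anti-MITF together with the promoter mark H3K4me3. They were found by merging the overlapping peaks in 6 lists, 3 for each antibody, from cells overexpressing GFP. A merged region was kept when at least 2 of 3 anti-MAFG lists and at least 2 of 3 anti-MITF lists had a peak in it, and when it shared at least 1 bp with an H3K4me3 peak of the same cells. The 3838 regions were 8.81% of the 43576 merged regions. Of these co-bound H3K4me3 regions, 1941 had a peak in all 6 lists, 1008 lacked 1 anti-MAFG list, 466 lacked 1 anti-MITF list and 423 lacked 1 list of each antibody. Without anti-MAFG replicate 1 of GFP cells the rule gave 2490 regions. The regions were chosen by these GFP-cell peak calls, so the calls are a description and carry no test.

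The series compared WM164 cells overexpressing GFP, the control, with WM164 cells overexpressing MAFG. Each line was profiled by CUT&RUN, in which a nuclease tethered to an antibody cuts out the bound DNA for sequencing. Anti-MAFG and anti-MITF had 3 libraries in each line and anti-H3K4me3 had 1, and the anti-rabbit IgG samples were not analysed here. The labels do not say whether replicates came from separate cultures or whether a line is a single clone, so p-values measure the spread between these libraries, which may be technical.

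MITF is the basic helix-loop-helix leucine zipper factor that directs the melanocyte lineage, and it binds E-box sequences at pigment, lysosome and cell-cycle genes. MAFG is a small MAF protein. It has no activation domain of its own and binds MAF recognition elements and antioxidant response elements as a dimer, with itself or with partners such as NRF2 (NFE2L2), NFE2L1, BACH1 and BACH2. H3K4me3, trimethylated lysine 4 of histone H3, marks the nucleosomes downstream of active start sites.

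The 250 bases before the start site are shown for 7 genes at co-bound H3K4me3 regions that were called again in MAFG-overexpressing cells. They were chosen after their calls were seen, because they hold the recognition sequences of the 2 families next to a start site. Sequences are RefSeq's, build GRCh38.p14, written 5′ to 3′ on the strand of the gene, and capitals mark the motifs searched. In the first set the capitals are the palindromic E-box CACGTG, or in TYR the E-box CATGTG. All of these 5 regions were called by anti-MITF in at least 2 of 3 libraries of MAFG-overexpressing cells and in no anti-MAFG library.
ATG3 chr3:112561963-112562212 (- strand): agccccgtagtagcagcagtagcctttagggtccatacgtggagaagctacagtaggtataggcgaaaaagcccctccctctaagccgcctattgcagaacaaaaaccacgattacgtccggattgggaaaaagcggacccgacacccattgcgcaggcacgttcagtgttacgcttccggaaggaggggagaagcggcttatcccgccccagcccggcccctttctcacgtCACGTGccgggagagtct
FNIP1 chr5:131797018-131797267 (- strand): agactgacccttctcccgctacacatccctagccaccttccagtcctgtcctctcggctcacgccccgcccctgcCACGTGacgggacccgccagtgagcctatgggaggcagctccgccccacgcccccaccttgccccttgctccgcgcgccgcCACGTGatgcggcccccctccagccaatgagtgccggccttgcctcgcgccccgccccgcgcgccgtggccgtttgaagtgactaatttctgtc
EIF4E chr4:98929134-98929383 (- strand): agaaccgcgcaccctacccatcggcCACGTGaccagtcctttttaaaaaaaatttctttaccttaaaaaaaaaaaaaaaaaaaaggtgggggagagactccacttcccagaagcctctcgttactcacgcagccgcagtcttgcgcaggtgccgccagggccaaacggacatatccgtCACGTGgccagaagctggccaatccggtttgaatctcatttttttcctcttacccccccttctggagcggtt
FEN1 chr11:61792661-61792910 (+ strand): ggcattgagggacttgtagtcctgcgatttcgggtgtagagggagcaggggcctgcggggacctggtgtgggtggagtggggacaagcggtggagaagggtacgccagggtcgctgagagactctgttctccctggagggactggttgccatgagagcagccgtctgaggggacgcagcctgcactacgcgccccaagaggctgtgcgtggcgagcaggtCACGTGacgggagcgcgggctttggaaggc
TYR chr11:89177625-89177874 (+ strand): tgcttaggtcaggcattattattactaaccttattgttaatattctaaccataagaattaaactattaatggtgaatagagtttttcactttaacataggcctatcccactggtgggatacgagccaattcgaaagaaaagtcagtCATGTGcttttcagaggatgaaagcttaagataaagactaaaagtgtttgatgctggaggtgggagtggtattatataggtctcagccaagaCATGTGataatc
ATG3, an enzyme that lipidates LC3 in autophagy, has CACGTG starting 18 bases before its start site (position -18). FNIP1, a folliculin partner in nutrient signalling, has copies starting at -175 and -94, and EIF4E, the cap-binding translation factor, at -225 and -72. FEN1, a flap endonuclease of DNA replication, has a copy at -30. TYR, the tyrosinase of melanin synthesis, has CATGTG at -104 and -12.

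In the second set the capitals mark TGCTGA, the core of a MAF recognition element, on either strand, and TGACTCA, the AP-1 sequence that such elements often contain. Both regions were called by anti-MAFG in at least 2 of 3 libraries of MAFG-overexpressing cells.
OSGIN1 chr16:83952990-83953239 (+ strand): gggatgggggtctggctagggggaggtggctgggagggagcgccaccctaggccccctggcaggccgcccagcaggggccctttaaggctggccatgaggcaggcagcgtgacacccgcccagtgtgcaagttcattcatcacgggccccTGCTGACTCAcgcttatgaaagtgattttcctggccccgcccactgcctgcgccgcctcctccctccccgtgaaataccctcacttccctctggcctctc
NQO1 chr16:69726561-69726810 (- strand): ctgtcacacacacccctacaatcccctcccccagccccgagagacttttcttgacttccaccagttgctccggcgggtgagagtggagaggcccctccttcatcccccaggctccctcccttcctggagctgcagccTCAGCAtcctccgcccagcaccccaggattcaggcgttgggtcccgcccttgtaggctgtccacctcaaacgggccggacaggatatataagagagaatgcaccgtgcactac
OSGIN1, an oxidative stress response gene, has TGCTGA starting at -100 and TGACTCA starting at -97, so that the motifs overlap in 1 run. NQO1, a quinone reductase and a standard NRF2 target, has the core on the opposite strand, read as TCAGCA, starting at -113. A match of letters is a description of the sequence and not a measured binding site. The summits of the peaks were not on these letters: the median anti-MITF and anti-MAFG summits lay at -220 and -220 in ATG3, 221 and -418 in FNIP1, -494 and -637 in EIF4E, and -587 and -599 in FEN1. In TYR they lay at -1635 and -347, in OSGIN1 at 211 and 215, and in NQO1 at -237 and -265.

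Each list holds the peaks of 1 library. The number of fragments at a summit could be solved from the deposited fold enrichment and p-value for 95.6% to 100% of the peaks of each list. The co-bound H3K4me3 regions rested on a median of 11 to 19 fragments per GFP-cell library, so single calls near the limit are imprecise. The smallest number of fragments that made a peak was 5 to 7 in the GFP-cell factor libraries and 8 to 12 in those of MAFG-overexpressing cells. The GFP-cell factor lists held 14879 to 26221 peaks and the MAFG-cell lists 1836 to 2818. H3K4me3 peaks lay at 7 of 8 melanocyte lineage genes in GFP cells, SOX10 and PMEL by a gene end and the others by a start site, with TYRP1 as the exception.

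The regions were mostly, but not all, promoters. A start site, or an end of a coding gene that has no start site in the table used, lay within 1000 bp of 2776 of the 3838 regions (72.3%), and the start site of a protein-coding gene within 1000 bp of 2254 (58.7%). The 2776 regions are called regions with a start site from here on, although some were matched by a gene end alone. Of them 2626 were assigned to a coding gene and 150 to another gene, while 630 of the rest lay in a gene body and 432 in neither. The median width was 1623 bp, with the middle 50% between 1225 and 2226 bp. Regions with a start site had a median H3K4me3 fold enrichment, as the authors' peak caller gave it, of 41.6, against 9.20 for the 1062 regions without one. The label of promoter therefore held for most of the regions, and those without a start site carried a weaker mark.

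Together the regions reached 2953 of 20033 protein-coding genes (14.7%), and 2950 of the 11420 coding genes with an H3K4me3 peak (25.8%). Another 424 regions served at least 2 coding genes, such as the region of ATG3 and SLC35A5. A start site on the opposite strand lay within 1000 bp upstream of 976 of the 3253 start sites at co-bound H3K4me3 regions (30%), against 18.5% of all 22077 coding start sites. The share was 28.2% of all 12456 start sites with H3K4me3, so most of the excess over all start sites is shared by marked start sites in general.

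The signal in GFP cells ran from the detection limit to the strongest peaks of the lists. The authors' fold enrichment at the regions had a median of 6.25 to 7.76 in the anti-MAFG libraries and 7.17 to 7.66 in the anti-MITF libraries. Ranked within each list, the regions had a mean percentile of 54.4 over the 6 libraries, close to the 54.7 of the 6509 co-bound regions without H3K4me3. Regions with exactly 2 lists of each antibody, just inside the rule, had a mean percentile of 28.4 and a median width of 1065 bp. Those just outside it had 19.7 and 940 bp with 2 anti-MAFG lists and 1 anti-MITF list (365 regions), and 18.8 and 930 bp with 1 and 2 (468 regions). The mean percentile falls with each missing list by construction. These percentiles therefore do not measure how strength changes at the edge of the rule.

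The strongest co-bound H3K4me3 regions included start sites of genes with different roles. The region of KAT7, a histone acetyltransferase, had anti-MAFG folds of 19.1, 14.6 and 13.1 and anti-MITF folds of 27.1, 33.2 and 27.2 in the 3 libraries each. The region of MATR3, a nuclear matrix RNA-binding protein, had anti-MAFG folds of 16.4, 22.5 and 15.4 and anti-MITF folds of 19.9, 16.9 and 19.2. That of CIROZ had 34.3, 26.8 and 22.8 with anti-MAFG and 22.2, 23.5 and 21.7 with anti-MITF. In all 3 regions every library was high, and the antibodies differed in which was higher. Other regions among the 10 with the best mean rank included DOCK10 and TMBIM1 at start sites, and regions 12734 bp from SLC39A11, 106527 bp from ABCA8 and 204489 bp from SEMA5A. H3K4me3 folds in this group reached from 3.55 at DOCK10 to 76.5 at MATR3, so strong factor peaks were not limited to strongly marked promoters.

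Around coding start sites the summits of both antibodies avoided the start site itself. In the GFP-cell libraries, 16.2% to 19.6% of summits lay 100 to 200 bp downstream of the nearest coding start site and 17.9% to 20.5% lay 200 to 400 bp upstream. The 100 bp just before the start site held 1.51% to 2.27%. Between 52.0% and 56.4% of summits were downstream. The H3K4me3 summit lay downstream in 87.9% of the regions, at a median of 324 bp. Anti-MAFG and anti-MITF thus had the same profile with a dip at the start site, and the 2294 regions with H3K4me3 and MITF peaks only shared it, with 15.8% to 17.3% of anti-MITF summits 100 to 200 bp downstream and 1.58% to 2.45% in the 100 bp before the start site. Most factor summits, 92.0% to 92.6% per library, were inside the H3K4me3 peak, at a median of 500 to 531 bp from its summit. The rule requires overlap with an H3K4me3 peak, so the high share inside it follows in large part from the selection.

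**Figure D1:**
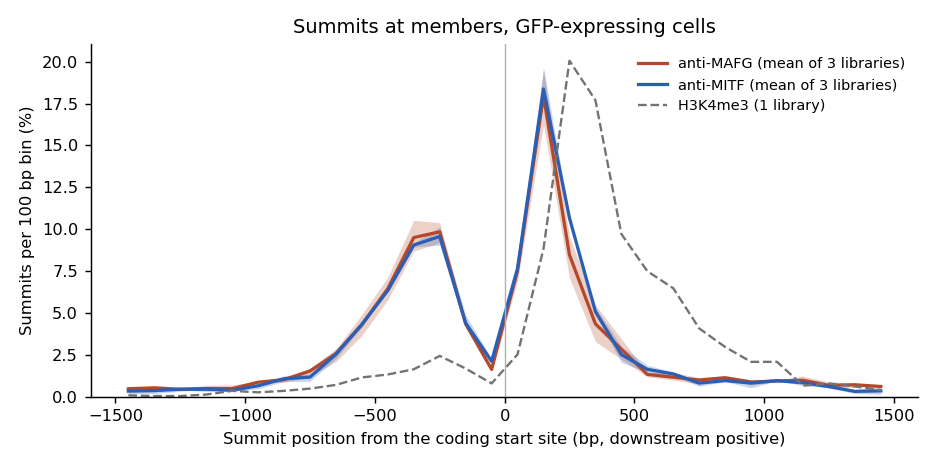
Share of summits per 100 bp bin (y axis, percent) against the distance from the nearest coding start site (x axis, bp, downstream positive) at co-bound H3K4me3 regions (members in this and the other plots) in GFP cells. Lines are means of 3 libraries for anti-MAFG and anti-MITF with the range over libraries shaded, and the dashed line is the single H3K4me3 library. Both antibodies peak on each side of the start site and hold 1.51% to 2.27% of summits in the bin just before it.

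Summits of the 2 antibodies lay close together, though not quite as close as those of replicates of 1 antibody. The distance between the highest anti-MITF and anti-MAFG summits in a region had a median of 157 bp (mean of the medians of 9 library pairs, range 143 to 176). Between libraries of the same antibody it was 124 bp (6 pairs, 111 to 134). The difference of 32.9 bp was the largest of the 10 ways to assign the antibody labels to the 6 libraries (two-sided exact permutation test, p = 0.1, the smallest this design can give). The summits belong to the peaks that chose the regions. The rule does not use summit positions, but it bounds the spacing by the region, so this p-value is only descriptive. In regions with 1 peak in each of the 6 libraries, 1243 of 3838, the difference was 10.7 bp, and with the nearest pair of summits in each region it was 23.7 bp. In co-bound regions without H3K4me3 the medians were 139 bp between antibodies and 110 bp within.

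**Figure D2:**
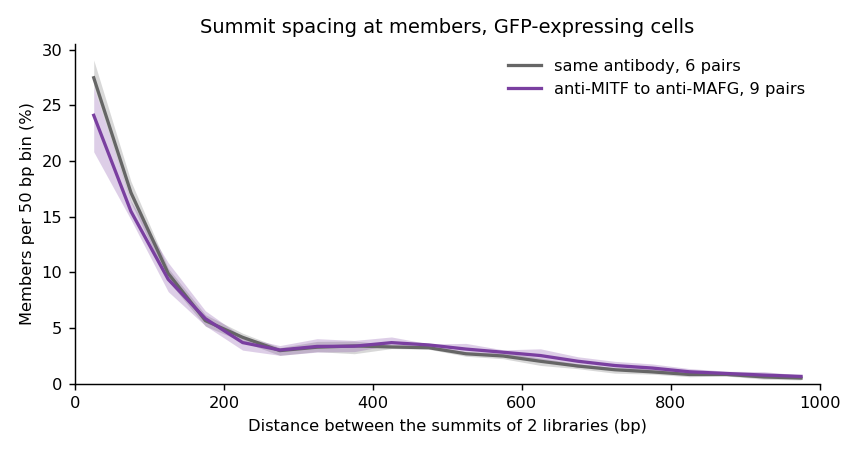
Share of co-bound H3K4me3 regions (y axis, percent per 50 bp bin) by the distance between the summits of 2 GFP-cell libraries (x axis, bp). Lines are means over library pairs of the same antibody (6 pairs) or of different antibodies (9 pairs), with the range over pairs shaded. The curves nearly coincide, and the pairs of different antibodies are lower in the bin of 0 to 50 bp.

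Taking the median summit of each antibody per region, the spacing had a median of 118 bp. It was at most 50 bp in 1163 regions (30.3%) and over 500 bp in 636 (16.6%). Wide spacing was about as frequent with a start site (17.1% of regions over 500 bp) as without (15.1%). Where a coding start site was near, summits of different antibodies were on the same side in 76.9% of regions on average (76.0% to 78.1% over the 9 pairs) and were then 84.1 bp apart, against 528 bp when on opposite sides. For libraries of 1 antibody the values were 80.1%, 75.1 bp and 504 bp. Regions with a spacing of 0 bp included those of CROCC, LSM10 and SORT1, the last a sorting receptor of the lysosomal pathway. The widest among regions with 1 peak in each library was in the body of PPARGC1A, the coactivator of mitochondrial biogenesis, at 1916 bp, followed by PFN2 at 1460 bp and KLF15 at 1435 bp.

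Among MITF lineage genes, 9 of 23 lay at a co-bound H3K4me3 region, beside 14.7% of all coding genes. These 9 were BCL2A1, DCT, HIF1A, MITF, MREG, PPARGC1A, RAB27A, SLC24A5 and TYR, and 19 of the 23 carried H3K4me3. The 9 were 47.4% of these 19, beside 25.8% of all coding genes with the mark. The members of this list were chosen with earlier results known, as were those of the others, so the counts are descriptions. MITF itself had 2 such regions. Its upstream start (chr3:69738316-69742273) had anti-MAFG folds of 13.6, 11.8 and 9.64 and anti-MITF folds of 9.42, 6.81 and 7.32. In MAFG-overexpressing cells it was called in all 3 anti-MAFG libraries, with folds of 5.43, 6.14 and 5.67, and in no anti-MITF library. The downstream start (chr3:69935597-69940770) showed the reverse, with no anti-MAFG call and folds of 4.13 and 4.83 in 2 of 3 anti-MITF libraries.

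Folds of GFP and MAFG-overexpressing cells are not on 1 scale, because the solved fragment numbers imply that the MAFG-cell factor libraries were scaled by 0.452 to 0.637 before calling. Where folds of both lines are given, here and below, they describe each line alone. A lower or higher fold in 1 line is not a measured change, and only the calls are compared. TYR had anti-MITF folds of 15.1, 18.4 and 14.8 in GFP cells, against 4.82 and 6.36 in the 2 anti-MAFG libraries with a peak. In MAFG-overexpressing cells its anti-MITF folds were 9.02, 8.63 and 8.46. RAB27A, a melanosome transport GTPase, was likewise called in all 3 anti-MITF libraries there, with 7.34, 6.58 and 6.54. MREG, a melanosome transfer gene, was called by both antibodies, in 3 of 3 anti-MAFG and 2 of 3 anti-MITF libraries. DCT, BCL2A1, HIF1A and the start of PPARGC1A had no factor call at these regions in MAFG-overexpressing cells, and SLC24A5 had 1. Another co-bound H3K4me3 region, in the body of PPARGC1A (chr4:23887871-23891254), was called there in all 3 anti-MITF libraries, with folds of 11.3, 8.33 and 9.49. The list genes called again were named after their calls were seen.

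Of 22 NRF2 and MAF antioxidant genes, 9 lay at a co-bound H3K4me3 region (40.9%), and all 22 carried H3K4me3. Of all coding genes with the mark 25.8% did. The 9 genes were GCLC, IDH1, ME1, NQO1, OSGIN1, PGD, SLC7A11, SQSTM1 and TXNRD1. In MAFG-overexpressing cells anti-MAFG called 4 of the 9 in at least 2 libraries and anti-MITF called 1, beside 6.07% and 12.7% of all co-bound H3K4me3 regions and 3.47% and 4.59% of all merged regions. NQO1 had anti-MAFG folds of 6.66, 6.53 and 13.2 there, and SLC7A11, the cystine importer, had 5.49, 5.85 and 5.49, both without an anti-MITF call. OSGIN1 had 5.98 and 5.64 in 2 anti-MAFG libraries and 4.64 in 1 anti-MITF library. SQSTM1, the autophagy receptor p62, was called in all 6 libraries, with anti-MAFG folds of 13.9, 6.28 and 9.12 and anti-MITF folds of 5.87, 5.88 and 3.79. GCLC and TXNRD1, the glutamate-cysteine ligase and thioredoxin reductase genes, had mean percentiles of 86.1 and 85.0 over the GFP-cell libraries of both antibodies. NQO1 had 55.7 and OSGIN1 88.7. GCLC and TXNRD1 had no call in MAFG-overexpressing cells, so the calls of these genes did not follow the order of this mean rank. Ranks of anti-MAFG alone were not compared.

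Of 12 small MAF proteins and partners, 4 were at a region (BACH1, CUL3, NFE2L1 and NFE2L2). They were 36.4% of the 11 with H3K4me3, beside 25.8% of all coding genes with the mark. CUL3, the ubiquitin ligase scaffold that serves KEAP1, was the only one of these 4 called again, with anti-MITF folds of 8.17, 8.03 and 8.43. Of all co-bound H3K4me3 regions, 12.7% were called again in at least 2 libraries by anti-MITF and 6.07% by anti-MAFG. NFE2L1 had anti-MAFG folds of 12.3, 10.9 and 5.21 and anti-MITF folds of 15.9, 10.9 and 10.8 in GFP cells, with summits 2 bp apart. Of 12 E-box binding bHLH-zip factors, 4 were at a region, which were also 36.4% of the 11 with H3K4me3. Among these MNT, a MAX partner and repressor, had anti-MITF folds of 17.1, 18.5 and 10.1 in GFP cells and was called in 2 of 3 anti-MITF libraries of MAFG-overexpressing cells.

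Several lysosomal genes at the regions were called again in more anti-MITF than anti-MAFG libraries, as were the regions as a whole (12.7% against 6.07% in at least 2 libraries). All genes of the lysosome, proton pump and autophagy lists carried H3K4me3. The shares at a region were 28%, 25% and 20%, beside 25.8% of all coding genes with the mark. Of 25 lysosome genes 7 were at a region. Among these 7, ASAH1, PSAP and NPC2 were each called in all 3 anti-MITF libraries of MAFG-overexpressing cells, and in at most 1 anti-MAFG library. NPC2, a lysosomal cholesterol carrier, had anti-MITF folds of 28.1, 17.7 and 19.2 in GFP cells and 11.5, 12.7 and 8.87 in MAFG-overexpressing cells. Of 16 proton pump (V-ATPase) genes 4 were at a region, and ATP6V0E1 and ATP6V1A were called again by anti-MITF, the first with 12.9, 9.53 and 12.01. Of 25 autophagy and mTORC1 genes 5 were at a region, and ATG3, WIPI1 and FNIP1 were called again by anti-MITF. ATG3 had 8.25, 7.73 and 9.76 in the 3 anti-MITF libraries there.

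Housekeeping groups were at the regions in varying shares. All genes of the DNA replication and chaperone lists carried H3K4me3. Of these lists 30.3% and 33.3% were at a region, beside 25.8% of all coding genes with the mark. Of 33 DNA replication genes 10 were, among them PCNA, the sliding clamp, with anti-MAFG folds of 15.9, 10.4 and 9.74 and anti-MITF folds of 16.3, 16.9 and 13.7 in GFP cells and no call in MAFG-overexpressing cells. ORC6, an origin recognition subunit, and FEN1 were called again in all 3 anti-MITF libraries, FEN1 with 6.44, 7.78 and 8.36. Of 15 chaperonin and mitochondrial chaperone genes 5 were at a region, all of them subunits of the cytosolic chaperonin (CCT2, CCT3, CCT6A, CCT7 and TCP1), and none was called in at least 2 libraries of either antibody in MAFG-overexpressing cells. TCP1 shared its region with MRPL18 and had anti-MAFG folds of 26.2, 22.3 and 17.9 in GFP cells.

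Other counts were 6 of 23 translation factors, 4 of 20 aminoacyl-tRNA synthetases, 5 of 26 splicing factors, 4 of 31 proteasome genes, 2 of 16 histone methylation genes, 8 of 36 complex I genes, 11 of 77 mitochondrial ribosomal proteins and 7 of 88 cytosolic ribosomal proteins. Most of these groups carried H3K4me3 at nearly every gene, 84 of 88 for the cytosolic ribosomal proteins, so of genes with the mark 8.33% of that list were at a region beside 25.8% of all. In the proteasome list PSMC2, an ATPase subunit, had GFP-cell folds of 4.85 and 5.78 with anti-MAFG and 3.97, 5.39 and 5.74 with anti-MITF. Its fragments numbered 34 and 29 with anti-MAFG and 15, 23 and 21 with anti-MITF. The medians of all co-bound H3K4me3 regions in the same libraries were lower, at 19 and 14, and 13, 14 and 13. PSMC2 was called in all 6 factor libraries of MAFG-overexpressing cells. Its folds there were 9.21, 11.2 and 13.4 with anti-MAFG and 8.77, 9.97 and 9.36 with anti-MITF.

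In MAFG-overexpressing cells, few of the co-bound H3K4me3 regions were called, and anti-MITF called more of them than anti-MAFG. The 3 anti-MAFG libraries had a peak at 6.44%, 6.25% and 8.10% of the 3838 regions (6.93% ± 1.02, SD, n = 3), and the 3 anti-MITF libraries at 14.8%, 13.3% and 14.1% (14.1% ± 0.743, SD, n = 3). The groups did not overlap, and the difference was 7.14 percentage points (two-sided exact permutation test, p = 0.1, the smallest 3 against 3 can give). It was 3.73 points with MAFG-cell peaks of −log10 q of at least 5 and 4.52 with equal numbers of peaks per MAFG-cell list. Called in at least 2 of 3 libraries were 233 regions (6.07%) with anti-MAFG, where 3.47% of all merged regions were, and 487 (12.7%) with anti-MITF, where 4.59% were. No library called 2763 regions (72.0%), where 86.6% of all merged regions had no call. Beside the low shares stand the shorter peak lists and the higher limit of 8 to 12 fragments in MAFG-overexpressing cells, whose part in the low shares was not tested. Since the regions were chosen for their GFP-cell calls, the fall from GFP cells has no test.

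Calls of both antibodies in at least 2 libraries each remained at 72 regions (1.88%), where 0.654% of all merged regions had them. They were 30.9% of the 233 anti-MAFG regions and 14.8% of the 487 anti-MITF regions. All 6 libraries called 33 regions (0.860%). The strongest called in 5 or 6 libraries included MATR3, CADPS, PRICKLE2 and SH3TC2 at start sites and regions in the bodies of PDE4B and GTF2F2. MATR3 had anti-MAFG folds of 8.72, 6.99 and 11.3 and anti-MITF folds of 12.2, 9.76 and 9.54 there. CADPS, a vesicle exocytosis gene, had 6.18, 7.41 and 7.73 and then 9.03, 8.15 and 7.27.

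All 3 anti-MITF libraries and no anti-MAFG library called 238 regions (6.20%), and the reverse held at 75 (1.95%). Whatever the other antibody did, all 3 anti-MITF libraries called 314 regions and all 3 anti-MAFG libraries 133. Of all 43576 merged regions they called 1171 and 877. The patterns with 1 antibody only were not counted over all merged regions. Among the 238 the strongest in GFP cells were the shared region of LACTB2 and XKR9, TMEM192, a lysosomal membrane protein gene, CYTH3, IFRD1 and the shared region of IMP4 and VMA22. TMEM192 had anti-MITF folds of 6.41, 9.97 and 8.53 in MAFG-overexpressing cells. Among the 75 were WDR81, SCAND1, a region in MIDEAS and a region 12055 bp from DDIT4, the stress-induced inhibitor of mTORC1. WDR81 had anti-MAFG folds of 7.80, 7.42 and 9.09 there, and the region near DDIT4 had 8.22, 12.3 and 9.41. Each of these regions had peaks of both antibodies in all 6 GFP-cell libraries.

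**Figure D3:**
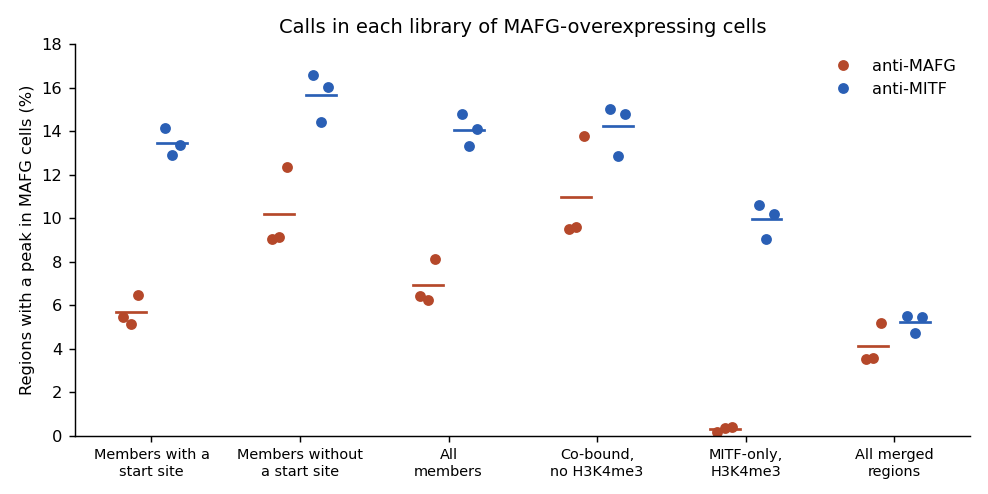
Share of regions with a peak in each library of MAFG-overexpressing cells (y axis, percent) for the region classes on the x axis. Points are the 3 libraries of each antibody and bars their means. At co-bound H3K4me3 regions the anti-MITF libraries (13.3% to 14.8%) lie above the anti-MAFG libraries (6.25% to 8.10%), and anti-MAFG calls are fewer at regions with a start site (mean 5.69%) than at those without (10.2%).

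Anti-MAFG called fewer of the H3K4me3 regions than of the 6509 co-bound regions without the mark. In the latter the anti-MAFG libraries called 9.51%, 9.60% and 13.8%, above the co-bound H3K4me3 regions in every library, with a mean difference of -4.02 points (two-sided exact sign-flip permutation test, p = 0.25, the smallest 3 libraries can give). The anti-MITF libraries called 15.03%, 12.8% and 14.8%, a mean difference of -0.152 points (same exact permutation test, p = 0.75), and it was 0.122 without anti-MITF replicate 3 and -1.04 with MAFG-cell peaks of −log10 q of at least 5 (lower in 3 of 3 libraries). Over all 6 libraries the difference was -2.09 points (same exact permutation test, p = 0.0938, where 0.0312 is the smallest possible). The gap differed between antibodies by 3.87 points (two-sided exact permutation test, p = 0.1, the smallest possible). Of the 7 tests made, which include the descriptive one of summit spacing, the lowest Benjamini-Hochberg adjusted p was 0.175.

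The lower anti-MAFG share went with start sites. Regions with a start site were called by anti-MAFG at 5.44%, 5.15% and 6.48%, and those without at 9.04%, 9.13% and 12.3%, near the co-bound regions without H3K4me3. The anti-MITF shares were 14.1%, 12.9% and 13.4% with a start site and 16.6%, 14.4% and 16.01% without. Both kinds were measured in the same libraries, and within each library of either antibody the share was lower with a start site. All merged regions were not split in this way, so the difference is not shown to be particular to these regions. Regions with a start site also had a lower mean GFP-cell percentile, 53.2 against 57.6, whose part in the difference was not tested.

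GFP-cell strength changed the shares more than the class did. A list without a peak counted as percentile 0 in the mean rank, so strength here also reflects how many lists had a peak. In 5 equal classes of mean GFP-cell rank, the mean anti-MAFG share of co-bound H3K4me3 regions went from 3.25% in the weakest class to 13.1% in the strongest, against 5.76% and 20.1% without H3K4me3, and it was lower in all 5 classes. The anti-MITF share went from 4.26% to 25.2%, against 4.56% and 29.1%, and in the 3 middle classes it was the higher one, with 7.64%, 13.7% and 19.8% against 7.58%, 11.8% and 17.98%. Compared with the 2294 H3K4me3 regions that had MITF peaks only, the anti-MITF libraries called 4.13 points more of the co-bound regions (higher in 3 of 3 libraries, exact sign-flip permutation test, p = 0.25). Within classes of anti-MITF strength this turned to -2.49 points (lower in 3 of 3 libraries), as in the strongest class, where 34.7% of co-bound and 39.4% of MITF-only regions were called.

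**Figure D4:**
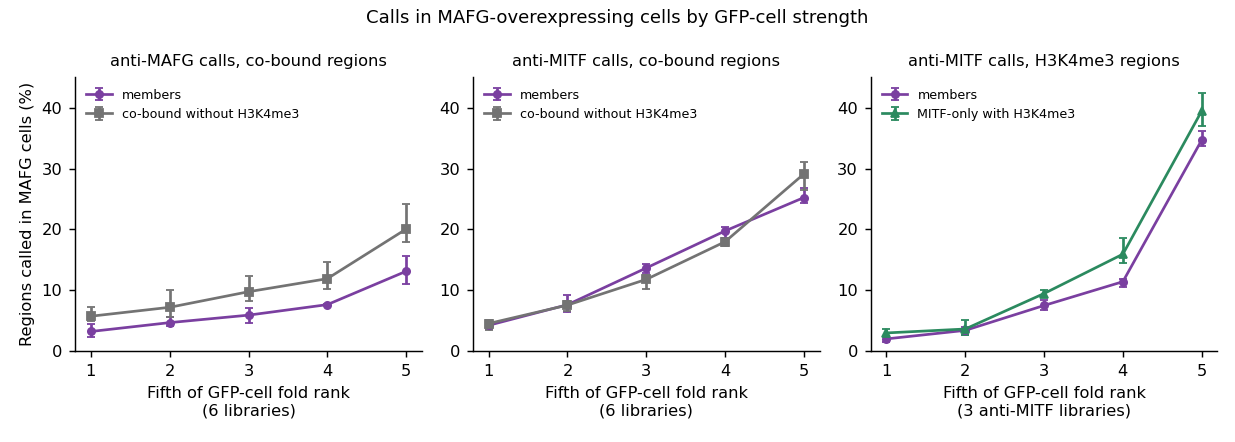
Mean share of regions called in MAFG-overexpressing cells (y axis, percent) by class of GFP-cell strength (x axis, 5 equal classes of the rank of the authors' fold enrichment, 5 strongest). Bars give the range over 3 libraries. The left and middle panels set co-bound H3K4me3 regions beside co-bound regions without the mark, and the right panel beside MITF-only H3K4me3 regions. Anti-MAFG shares of the H3K4me3 regions are lower in all 5 classes, and MITF-only regions reach 39.4% in the strongest class against 34.7%.

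If a region kept its GFP-cell fragments per kilobase of background, its expected signal can be set against the calling limit of each MAFG-cell library. Of the regions with at least 2 times the limit, 48.1% to 52.0% were called in the anti-MITF libraries (487 to 513 regions each) and 18.1% to 23.8% in the anti-MAFG libraries (143 to 261 regions each). Among regions expected under the limit the shares were 1.62% to 2.59% and 2.49% to 3.21%. Regions expected under the limit were 34.1% to 49.1% of all for anti-MAFG and 22.6% to 24.2% for anti-MITF, and the part of this gap in the 7.14 points was not tested. A region without a call is not shown to be unbound.

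The shares of CACGTG and TGCTGA at the start sites differed by which antibody called the region in MAFG-overexpressing cells. Motifs were searched on both strands in windows of 300 bases, 250 before and 50 after each of 22077 coding start sites in RefSeq. CACGTG was in 9.87% of 3253 windows at co-bound H3K4me3 regions, 8.32% of all windows, 10.2% of the 12456 windows with H3K4me3 and 18.7% of 1982 windows at MITF-only H3K4me3 regions. Where anti-MITF called the region again in at least 2 of 3 libraries it was in 16.3% of 412 windows, where anti-MAFG did so in 7.45% of 161, and where no library did in 8.67% of 2400. The core TGCTGA was in 12.9% of windows at co-bound H3K4me3 regions and 15.4% of all windows, but in 11.03% of 3154 windows with H3K4me3 and no factor region. It was in 24.2% of windows called again by anti-MAFG, 12.4% of those called again by anti-MITF and 12.4% of those called by none.

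The longer TGCTGAC, which contains the core, was in 10.6% of windows called again by anti-MAFG, against 3.47% at co-bound H3K4me3 regions and 3.81% of all windows. TGACTCA was in 7.45% against 3.44% and 4.02%. CATGTG, the asymmetric E-box, was in 12.4% of windows called again by anti-MITF, against 6.76% and 8.96%. In windows called again by anti-MAFG its share was 9.32%. TGACNNNGC, the antioxidant response core with N any base, was in 21.1% of windows called again by anti-MAFG and 17.96% by anti-MITF. It was in 14.7% at co-bound H3K4me3 regions, 13.8% of all windows and 17.1% at MITF-only H3K4me3 regions. The called-again sets are not separate, since 72 regions were called by both antibodies. Of the windows called again by anti-MITF, 25.7% held CACGTG or CATGTG, against 15.7% at co-bound H3K4me3 regions and 16.5% of all windows. Mean G+C content was 63.8% at co-bound H3K4me3 regions, 60.9% in all windows and 67.3% at MITF-only H3K4me3 regions, and its part in these shares was not tested. Start sites are not replicates, and the shares carry no test. The median distance from CACGTG to the anti-MITF summit was 278 bp over 324 pairs of region and window. That from TGCTGA to the anti-MAFG summit was 293 bp over 425. Most copies found in the windows were thus not under the summit. Only the start-site windows were searched, and many summits lay outside them. The sequence under the summits was not read, so these distances do not show whether the summits hold the motifs.

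**Figure D5:**
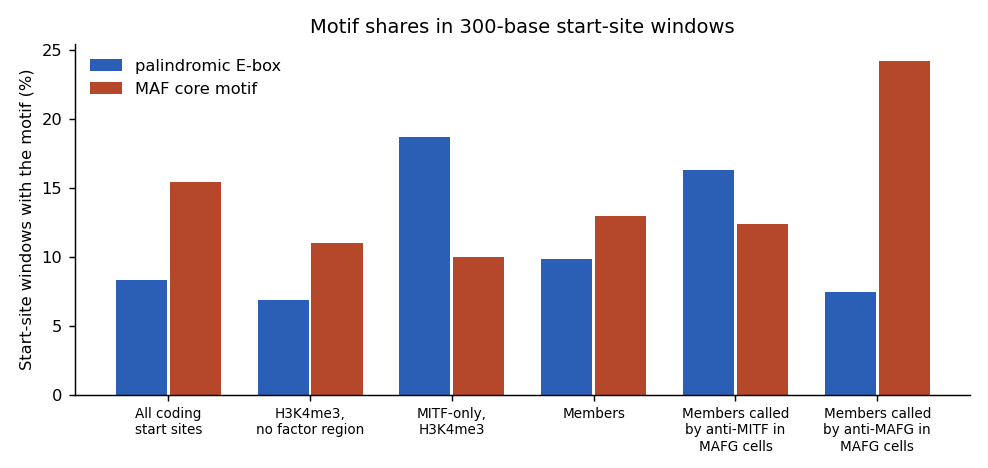
Share of 300-base start-site windows (y axis, percent) that hold the palindromic E-box or the MAF core motif, for the sets of start sites on the x axis. Bars are shares of all windows in a set. The E-box share is 16.3% where anti-MITF called the region again and the MAF core share is 24.2% where anti-MAFG did, against 9.87% and 12.9% at all co-bound H3K4me3 regions.

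H3K4me3 itself was called again at most of the regions. Of the 3838 regions, 3087 (80.4%) overlapped an H3K4me3 peak of MAFG-overexpressing cells, with 1 library per line and so no test. Counted as peaks, 3033 of the 3769 GFP-cell H3K4me3 peaks at these regions were called again (80.5%), as were 80% of all 13579. The share was 89.7% for H3K4me3 peaks with MITF only and 69.1% for those with no factor region. It followed the strength of the mark: in 5 equal classes of GFP-cell fold enrichment, 15.4% of peaks at co-bound regions were called again in the weakest class, 82.9% in the next and at least 99.1% in the other 3. Peaks with no factor region had 20.1%, 77.4% and at least 99.1% in the same classes.

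The H3K4me3 call was lost more often at regions without a start site, as it was over all H3K4me3 peaks. It was called again at 93.7% of the 2776 regions with a start site and at 45.8% of the 1062 without. Counted as peaks the shares were 94.6% and 37.5% at these regions, against 89.97% and 39.3% over all 13579 peaks. Several of the regions with the strongest factor peaks had no H3K4me3 call in MAFG-overexpressing cells, among them those of CIROZ, DOCK10 and GTF2F2, whose GFP-cell H3K4me3 folds were 8.88, 3.55 and 6.79. At TYR the H3K4me3 peak was called in both lines, with folds of 40.3 and 22.1, and at MITF's upstream start with 35.9 and 17.7. The solved scale of the H3K4me3 library was 0.350 in MAFG-overexpressing cells, so the folds of the lines are not compared.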

How the data were processed

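CUT&RUN peak lists of 14 libraries of WM164 cells overexpressing GFP or MAFG were analysed: 3 anti-MAFG, 3 anti-MITF and 1 H3K4me3 library per line. The submitters' processing notes name cutadapt 1.8.1, Bowtie2 2.4.1, MACS2 2.1.1.20160309 and builds GRCh38 and hg38, without settings or the control used. The deposited values per peak are a fold enrichment at the summit (a linear ratio over local background), the −log10 of its p-value and q-value, a whole-number score made from the latter and not used, and the summit position. Each list comes from 1 library, and no pair of lists of a group shared over 0.284% identical peaks. The authors' values were used only to rank and describe peaks within a list and to solve for fragments (tolerance 0.001 in −log10 p).

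All peaks on human chromosomes were used, and a few on a non-human sequence name were left out. The rule and the overlaps (1 bp) were applied with Python 3.11.15, pandas 2.3.3 and scipy 1.17.1, and the scripts were tested on simulated peak lists. Start sites came from RefSeq tables of GRCh38.p14: 15842 of 20033 coding genes had a start site, and the ends of the others were used. H3K4me3 summits lay within 1000 bp of a coding start site in 61.5% of cases and in 2.86% after a shift of 100000 bp. Shares per library were compared by exact permutation. The regions, the 17 gene lists and the motifs were chosen with earlier results of these data known. Named genes were the 4 best-ranked of each list, the 10 best-ranked regions, the 10 best-ranked called in 5 or 6 MAFG-cell libraries, the 3 widest and 3 narrowest spacings and the 5 best-ranked regions called by 1 antibody only, and, after calls were seen, list genes called in MAFG-overexpressing cells. Not every gene of these sets is described, and 1 item is not reported here. Alternatives were other calling rules, strength classes, left-out libraries and a replicate block.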

Additional observations from a re-analysis of the deposited data

How the results depend on the processing

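The rule's count of 3838 regions was 1941 when all 6 lists were required, 2404 with peaks of −log10 q of at least 5 and 2557 with equal numbers of peaks per list. Leaving out a GFP-cell library gave 2490 to 3469. The 103 list genes at a region became 43 when all 6 lists were required. The difference of 7.14 points between antibodies in MAFG-overexpressing cells was 3.73 to 7.73 under every alternative tried, and leaving out a library gave 6.77 to 7.73. With the replicate block it was 7.14 (exact sign-flip permutation test, p = 0.25, the smallest possible). Same-numbered libraries correlated by -0.0219, 0.00311 and -0.00917 in their deviations, and libraries of different number by -0.0256 to 0.0384. The deviations thus gave no sign of pairing by number. They cannot show whether same-numbered libraries shared a culture, which the labels do not state.

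The difference between co-bound regions with and without H3K4me3 over both antibodies was -1.99 points with −log10 q of at least 5 (exact permutation p = 0.0312), past the threshold of 0.05, and -2.60 to -1.38 without single libraries. For anti-MAFG it was -4.50 to -3.21 without single libraries, and -2.94 with −log10 q of at least 5. For anti-MITF it was -0.462 to 0.122 and -1.04. With start-site regions alone, an alternative added after the data were seen, it was -5.26 for anti-MAFG and -0.761 for anti-MITF, and with regions without a start site -0.785 and 1.44. The difference from MITF-only regions turned from 4.13 to -2.49 within classes of strength, and was 4.05 to 4.25 without single libraries. The spacing difference of 32.9 bp was 10.7 to 35.4 bp under all alternatives and 26.7 to 35.4 bp without single libraries. Genes at regions numbered 2476 to 3114.

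Of alternatives added after the data were seen, H3K4me3 was called again at 64.8% with its summit inside the region, 76.8% with −log10 q of at least 5 and 78.3% at regions in all 6 lists. The CACGTG share at co-bound H3K4me3 regions was 1.55 points above all windows, 3.02 above H3K4me3 windows with no factor region and -8.85 against MITF-only windows, an added alternative. The causes of these changes were not tested, apart from the fewer peaks that stricter rules admit. The median of 11 to 19 fragments per region limits single calls.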
